A study of Rattus norvegicus with 12 samples.

Results

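Regulators of cyclic AMP and of protein kinase A were followed in cultured smooth muscle cells of the newborn rat aorta after stimulation of their thrombin receptors. The genes described are Akap12, Prkar1a, Prkar2b, Pde3b, Pde4b, Pde4d, Creb1, Crem and Sik1. Their probe sets were taken by gene symbol, wherever the array annotation lists exactly 1 symbol and it is one of these 9. Of 14217 genes named this way on the array they are 9, with 24 of the 31042 probe sets that are not array controls, and 20 of the 24 were bright enough to be tested among 18625 tested in all. By gene, 2 of 2 probe sets were tested for Akap12, 3 of 3 for Prkar1a, 1 of 1 for Prkar2b, 1 of 1 for Pde3b, 2 of 2 for Pde4b, 2 of 3 for Pde4d, 3 of 4 for Creb1, 5 of 6 for Crem and 1 of 2 for Sik1.

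The cells were primary cultures from newborn rats, starved of serum overnight, and RNA of 12 samples was measured on 12 arrays in 6 groups of 2. One experiment has unstimulated cells and cells 120 min after thrombin at 2 U/ml, a clotting protease that activates its receptors by cutting them. Another has unstimulated cells and cells 120 min after TRAP at 25 µM, a peptide that activates a thrombin receptor without the protease. The last has unstimulated cells and cells 120 min after TRAP at 25 µM given after 24 h in 200 ng/ml of pertussis toxin (PTX), a bacterial toxin that cuts receptors off from Gi proteins. By its design text, the study asked what thrombin receptors do to transcription with Gi coupled and uncoupled. The unstimulated arrays of the PTX experiment are labelled as having had no agent, so whether those cells received PTX is not stated, and an effect of PTX by itself cannot be told apart from a change in the answer to TRAP. The labels name neither a strain nor a passage and do not say that the arrays of a group came from separate cultures, so every p-value here measures only the spread between these samples.

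Cyclic AMP is made by adenylyl cyclases, which receptors stimulate through Gs and inhibit through Gi, and is destroyed by phosphodiesterases. It releases the catalytic subunits of protein kinase A (PKA) from their regulatory subunits, which A-kinase anchoring proteins hold at set places in the cell. PKA phosphorylates the transcription factor CREB, which binds the cyclic AMP response element (CRE), and the kinase also holds back the salt-inducible kinases that keep the coactivators of CREB out of the nucleus. In vascular smooth muscle the pathway is known for relaxation and for slowing growth, and it is switched down when Gi-coupled receptors are active.

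The DNA just before the transcription starts of these genes is shown because some of them are textbook targets of CREB. RefSeq (GRCr8) gave 16 windows of 250 bases ending at a start, for 8 of the 9 genes, and none was matched for Pde3b. The full CRE, TGACGTCA, stood in 2 of the 16 windows, both at internal starts of Crem, and in 1.59% of all 33469 windows of that length. Its shorter form, TGACG or on the other strand CGTCA, both of which lie inside a full CRE, stood in 7 windows of 4 genes (Crem, Creb1, Pde4d and Sik1) and in 18.22% of all windows. The AP-1 motif TGANTCA, which overlaps neither form of the CRE by its letters, stood in 1 member window, of Pde4b at chr5:122222323-122222572, and in 6.34% of all windows. Both strands were searched, and a match describes letters and not a site in use. Windows of 3 genes follow, each 5′ to 3′ on the strand of its gene, with the CRE or its shorter form in capitals: that of Akap12, the member with the largest changes, which holds neither form, those of the internal Crem starts, where the first base of the CRE lies 56 and 35 bases before the start, and that of Sik1, with the shorter form at 2 places.
Akap12 chr1:43135265-43135514 (plus strand): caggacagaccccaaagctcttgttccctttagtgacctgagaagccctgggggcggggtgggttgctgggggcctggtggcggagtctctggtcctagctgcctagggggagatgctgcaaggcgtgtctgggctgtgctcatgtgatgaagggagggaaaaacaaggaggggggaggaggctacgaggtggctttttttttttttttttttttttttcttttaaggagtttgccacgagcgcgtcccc
Crem chr17:58984547-58984796 (plus strand): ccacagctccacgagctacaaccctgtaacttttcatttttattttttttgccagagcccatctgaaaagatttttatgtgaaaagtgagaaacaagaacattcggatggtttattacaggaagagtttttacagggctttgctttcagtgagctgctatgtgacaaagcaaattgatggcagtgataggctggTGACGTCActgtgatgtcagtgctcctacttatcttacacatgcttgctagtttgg
Crem chr17:58985240-58985489 (plus strand): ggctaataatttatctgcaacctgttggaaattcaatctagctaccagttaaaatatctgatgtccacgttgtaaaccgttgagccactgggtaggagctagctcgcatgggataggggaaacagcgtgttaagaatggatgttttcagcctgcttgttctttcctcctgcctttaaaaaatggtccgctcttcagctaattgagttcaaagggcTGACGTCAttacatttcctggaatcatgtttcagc
Sik1 chr20:9958647-9958896 (minus strand): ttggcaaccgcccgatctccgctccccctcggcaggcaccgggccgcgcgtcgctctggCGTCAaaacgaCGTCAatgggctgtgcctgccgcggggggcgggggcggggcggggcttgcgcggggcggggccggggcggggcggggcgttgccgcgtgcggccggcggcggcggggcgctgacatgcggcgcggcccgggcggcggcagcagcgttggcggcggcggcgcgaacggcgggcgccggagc
The windows come from the current rat assembly and were not used to place the probe sets, whose genome build is not given in the sources used here.

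Array signals had medians of 39.7 to 53.6, and the 2 arrays of a group correlated at 0.983 to 0.991. Smooth muscle markers fitted the label, with all 10 bright enough to test (Acta2 at a mean signal of 7221, Tagln at 5561, the dimmest, Des, at 28.85) and group sums from 16422 to 27505. Of the markers of other cells on the array, 1 of 6 endothelial (Tek at 45.4, Pecam1 at 4.242, group sums 53.3 to 94.2), 2 of 8 leukocyte (Ptprc at 4.275, sums 368.95 to 619.8, mostly Cd14 at 408.5), 0 of 5 adipocyte (sums 12.95 to 25.9), 6 of 7 adventitial fibroblast (the brightest, Mfap5, at 5431, sums 6378.8 to 10227) and 2 of 4 Schwann and neural markers (Cnp at 256, Sox10 at 5.408, sums 246.95 to 375.25) were bright enough. Several of the fibroblast genes are also made by cultured smooth muscle cells, and their part in any result was not tested. The 8 arrays of the TRAP experiments fell into a pair of sets by the acute-phase gene Saa3, found in the data and not part of the design. Its signal was 15.9 to 22.8 on TRAP replicate 2, on TRAP after PTX replicate 1 and on both unstimulated TRAP arrays, here called the first set. It was 222.5 to 420.9 on TRAP replicate 1, on TRAP after PTX replicate 2 and on both unstimulated PTX arrays, here called the second set. Each stimulated group of these experiments therefore has 1 array in either set, and TRAP replicate 1 and TRAP after PTX replicate 1 lie in the set of the other experiment's unstimulated arrays. Whether the labels of these 2 arrays were exchanged was not tested. The labels were kept, and any value that rests on these arrays, those of TRAP with and without PTX above all, would be another if they were. The changes of Akap12 and Prkar2b and the members' comparison of TRAP with and without PTX move with the sets. They are also given with the sets as a block. The PTX differences of genes other than the members are given without it.

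Of the 20 tested member probe sets, 2 fell with thrombin and none rose, 1 rose with TRAP and none fell, and 2 rose with TRAP after PTX and none fell. They belong to 2 genes, Akap12, which rose, and Pde4b, which fell. Over all tested probe sets the limma test, at an adjusted p below 0.05, called 2.63% higher and 2.1% lower with thrombin, 1.84% higher and 2.07% lower with TRAP, and 1.68% higher and 1.03% lower with TRAP after PTX. With so few calls the members' shares (10% of the 20 with thrombin, 5% with TRAP, 10% with TRAP after PTX) describe these genes and say nothing of the pathway. The median log2 change of the members was 0.144 with thrombin against -0.036 over all probe sets, 0.087 against -0.035 with TRAP, and 0.182 against -0.038 with TRAP after PTX. Both stimulated arrays lay above both unstimulated arrays in 9, 10 and 9 of the 20 members in that order of stimuli, and below both in 3, 3 and 1. Over all probe sets those shares were 18.8%, 19.2% and 18.1% above and 28.6%, 29.4% and 27.1% below. Several probe sets measure the same gene, so the members are not independent of each other. All changes are differences of log2(signal + 16), a scale that understates the change of dim probe sets. Probe sets differ in brightness, so signals are compared between arrays and never between genes, and a lower signal cannot tell fewer cells carrying a transcript from less of it per cell.

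Akap12 encodes gravin, a scaffold that ties PKA, protein kinase C and phosphodiesterases to the cell membrane. It was higher on every stimulated array than on the unstimulated arrays of its own experiment, by both of its probe sets. Probe set 1368869_at read 1113.4 and 1086.9 without stimulus and 2586.9 and 2638.4 with thrombin, so that replicates lay close together and the groups far apart. In the TRAP experiment it read 894.9 and 889.9 without stimulus and 1567.7 and 3728.6 with TRAP. In the PTX experiment it read 414.3 and 401 without stimulus and 3365 and 1503.2 with TRAP after PTX. Both TRAP groups were thus split into a high and a low array, although even the low arrays lay above their own unstimulated pair.

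The second Akap12 probe set, 1368868_at, gave the same picture. It read 396.2 and 338.9 without stimulus and 993.8 and 1067.3 with thrombin. It went from 271.2 and 273.8 to 452 and 1294.8 with TRAP, and from 133.5 and 156 to 1196.3 and 462 with TRAP after PTX. The high and low arrays were the same ones in both probe sets, and over the 12 arrays their deviations from the unstimulated means correlated with r = 0.989, a description of arrays that they share.

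**Figure D1:**
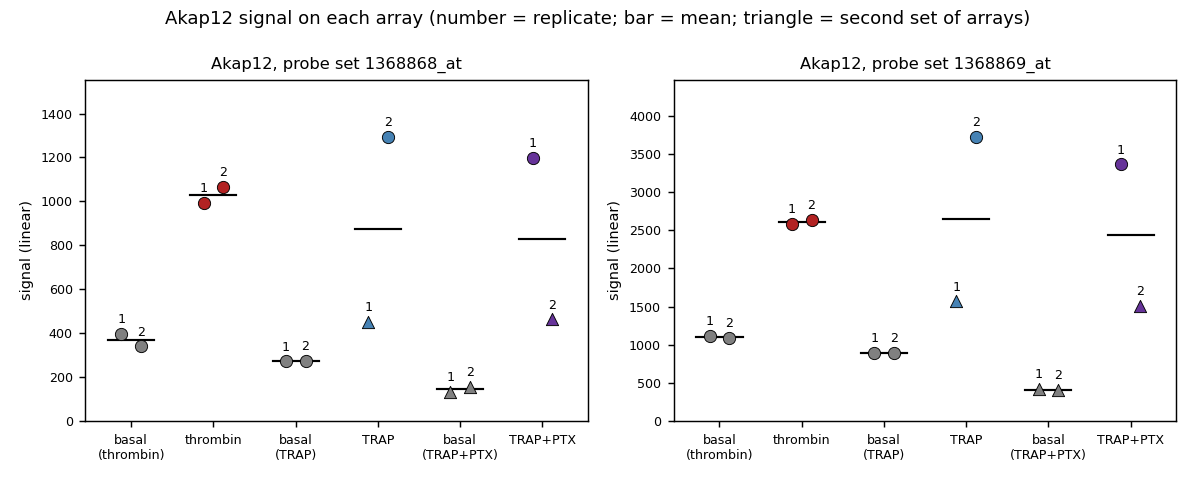
Signal (linear scale, vertical axis) of both Akap12 probe sets on each of the 12 arrays by group (horizontal axis), with the replicate number beside each point and a bar at the mean of each group of 2. Triangles mark the second set of arrays: for 1368869_at the low TRAP array (1567.7) and the low TRAP after PTX array (1503.2) are triangles, as are both unstimulated arrays of the PTX experiment (414.3 and 401).

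The ratio of the stimulated to the unstimulated mean of Akap12 was 2.38 with thrombin, 2.97 with TRAP and 5.97 with TRAP after PTX by 1368869_at, and 2.80, 3.21 and 5.73 by 1368868_at. For 1368869_at the mean went from 1100.15 ± 18.7 (SD, n = 2) to 2613 ± 36.4 with thrombin, from 892 ± 3.54 to 2648 ± 1528 with TRAP, and from 408 ± 9.40 to 2434 ± 1316.5 with TRAP after PTX. The log2 change with TRAP was 1.42 ± 0.34 (SE; adjusted p = 0.0302 by limma), and that with TRAP after PTX was 2.42 ± 0.34 (adjusted p = 0.00137). With thrombin it was 1.24 ± 0.34, with an adjusted p of 0.0531 that just missed the threshold. For 1368868_at only TRAP after PTX passed, at 2.25 ± 0.40 (adjusted p = 0.00884), against 1.45 ± 0.40 with thrombin (0.0563) and 1.44 ± 0.40 with TRAP (0.0645).

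The thrombin arrays of Akap12 missed the threshold although their 4 values were the most closely paired. The standard error is shared by all 6 groups, and the split TRAP groups enter it. In a fit of the 4 arrays of the thrombin experiment alone, the same changes had adjusted p of 0.000321 for 1368869_at and 0.000293 for 1368868_at, within ranges over all alternatives of 1.07e-06 to 0.218 and 3.58e-06 to 0.24. The call with TRAP was lost without TRAP replicate 2, where the change of 1368869_at was 0.80 (adjusted p = 0.237), and kept without TRAP replicate 1, where it was 2.04 (adjusted p = 0.00257). It was also lost without either unstimulated TRAP array (adjusted p of 0.169 and 0.161). With TRAP after PTX, 1368869_at passed in all 12 fits that left out 1 array, with changes from 1.84 to 3.0. Its adjusted p over all alternatives ran from 2.75e-07 to 0.0233. The call of 1368868_at was lost without TRAP after PTX replicate 1 (adjusted p = 0.0847) or without either unstimulated array of the PTX experiment (0.0582 and 0.0581).

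On the stimulated arrays of the TRAP experiments, Akap12 followed the sets of arrays defined by Saa3. Without stimulus each set holds the arrays of 1 experiment, so set, experiment and any PTX in those cells cannot be told apart. The unstimulated arrays of the PTX experiment (414.3 and 401) read 1.10 lower on the log2 scale than those of the TRAP experiment (894.9 and 889.9) for 1368869_at, and 0.85 lower for 1368868_at. Set against the unstimulated arrays of the same set, the 4 stimulated arrays came close together. For 1368869_at the differences were 2.04 (TRAP replicate 2) and 1.90 (TRAP after PTX replicate 1) in the first set, and 1.90 (TRAP replicate 1) and 1.84 (TRAP after PTX replicate 2) in the second. For 1368868_at they were 2.18 and 2.07 in the first set and 1.55 and 1.58 in the second. With the sets as a block the change of 1368869_at was 2.02 with TRAP (adjusted p = 7.46e-08) and 1.82 with TRAP after PTX (adjusted p = 2.75e-07), while that with thrombin stayed at 1.24 (adjusted p = 1.07e-06). For 1368868_at the block gave 2.15 (6.65e-07), 1.54 (1.75e-05) and 1.45 (3.58e-06). These sets were read from the same arrays, and the block is estimated from the 4 stimulated arrays of the TRAP experiments alone. The low p-values are therefore no independent support, and the order of the TRAP responses with and without PTX turned round with the block.

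Prkar1a encodes a regulatory subunit of PKA that holds the kinase inactive until cyclic AMP binds. Its 3 probe sets moved little in any experiment. For 1373951_at the unstimulated arrays read 2918.5 and 2913.3, 2861.8 and 2920.2, and 2867.2 and 2679.5 in the thrombin, TRAP and PTX experiments, and the stimulated arrays 2801.6 and 3013.2, 2992.1 and 3143.3, and 3137.1 and 2923.3. The groups overlapped with thrombin and lay slightly apart with TRAP and with TRAP after PTX. The 9 log2 changes of the 3 probe sets lay between -0.01 and 0.15 and none passed the test. The 95% intervals for 1373951_at ran from -0.19 to 0.18 with thrombin, from -0.10 to 0.27 with TRAP and from -0.06 to 0.31 with TRAP after PTX. For this probe set a change of more than 0.31 on this scale lies outside all of them. The intervals of the others with TRAP after PTX reached further, to 0.35 for 1386905_at and 0.42 for 1388375_at.

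Prkar2b encodes a regulatory subunit of type II PKA, a form that anchoring proteins bind. Its probe set, 1371133_a_at, read 138.6 and 115.8 without stimulus and 95.1 and 134.2 with thrombin. It read 345.1 and 332 without stimulus and 220.1 and 352.4 with TRAP, and 279.3 and 253.6 without stimulus and 377.7 and 229.1 with TRAP after PTX. Stimulated and unstimulated arrays overlapped in all 3 experiments, and the changes of -0.14, -0.27 and 0.14 did not pass (adjusted p of 0.813, 0.642 and 0.809 by limma). The low TRAP and TRAP after PTX arrays were those of the second set, as for Akap12. The unstimulated arrays of that set, all from the PTX experiment, read 0.33 lower (log2) than those of the first, all from the TRAP experiment. With the sets as a block the Prkar2b changes turned to 0.07 with TRAP (adjusted p = 0.918) and -0.19 with TRAP after PTX (adjusted p = 0.615). All 4 arrays of the thrombin experiment lay below the 8 others, a difference between experiments in which the cultures and the array runs cannot be told apart.

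Pde4b encodes a phosphodiesterase that breaks down cyclic AMP and belongs to the family inhibited by rolipram. It was the only member gene called lower, and only the thrombin experiment had the call. Probe set 1374157_at read 157.6 and 171.3 without stimulus and 85.3 and 55.1 with thrombin. Probe set 1369044_a_at read 93.6 and 94.4 without stimulus and 44 and 32.5 with thrombin. Both thrombin arrays lay clearly below both unstimulated arrays by either probe set, at 0.427 and 0.407 of the unstimulated mean. The log2 changes were -1.09 ± 0.23 (SE; adjusted p = 0.0146 by limma) and -1.03 ± 0.21 (adjusted p = 0.0117).

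In the TRAP experiment Pde4b stayed near its unstimulated signal. By 1374157_at it read 77.8 and 100.1 without stimulus and 87.2 and 90 with TRAP, and 77.8 and 88.2 without stimulus and 78.1 and 141.6 with TRAP after PTX. By 1369044_a_at it read 57.4 and 53.2 and then 65.1 and 54.9 with TRAP, and 63.7 and 63.8 and then 45.5 and 78.8 with TRAP after PTX. The groups overlapped in each of these comparisons. The changes with TRAP were 0.00 (95% interval -0.49 to 0.50) and 0.09 (-0.36 to 0.54), and with TRAP after PTX 0.30 (-0.19 to 0.80) and -0.06 (-0.51 to 0.39). The thrombin response differed from the TRAP response by -1.09 ± 0.33 (adjusted p = 0.203) and -1.12 ± 0.30 (adjusted p = 0.142), so the difference itself did not pass the test over all probe sets. Before stimulation the thrombin experiment had read higher than the others, and after thrombin Pde4b lay at or below the unstimulated signals of the TRAP experiments.

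**Figure D2:**
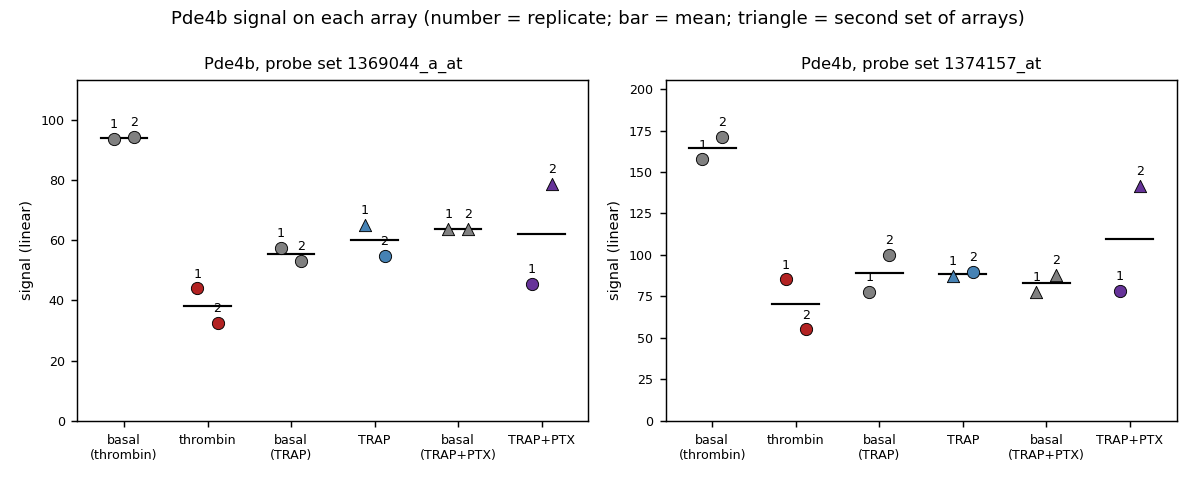
Signal (linear scale, vertical axis) of both Pde4b probe sets on each of the 12 arrays by group (horizontal axis), with replicate numbers, a bar at each group mean and triangles for the second set of arrays. The unstimulated arrays of the thrombin experiment (157.6 and 171.3 for 1374157_at) stand above all other arrays, and the thrombin arrays (85.3 and 55.1) lie in or below the range of the unstimulated TRAP arrays (77.8 and 100.1).

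The fall of Pde4b depended on single arrays of its own experiment. Without thrombin replicate 2 the change was -0.83 (adjusted p = 0.173) for 1374157_at and -0.87 (adjusted p = 0.13) for 1369044_a_at. The call was also lost without unstimulated replicate 1 (adjusted p of 0.0747 and 0.0749) and, for 1374157_at, without unstimulated replicate 2 (0.0677). With the sets of arrays as a block it stayed at -1.09 and -1.03 (adjusted p of 0.00916 and 0.00448). Over all alternatives the adjusted p ran from 0.00431 to 0.173 and from 0.0044 to 0.13.

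Pde4d and Pde3b encode further phosphodiesterases of cyclic AMP, the second of a family that cyclic GMP inhibits. Neither gene passed the test in any experiment. Pde4d by 1370569_at read 29 and 29.7 without stimulus and 16.4 and 17.9 with TRAP after PTX, with a change of -0.45 ± 0.21 (adjusted p = 0.301). With TRAP the same probe set went from 28.4 and 30 to 25.4 and 20.3, so in both TRAP experiments the stimulated arrays lay below the unstimulated ones, while with thrombin 35.9 and 23.5 became 36.8 and 34.3. Some of these signals lie below 22.7, the mean signal that a probe set needed for the test.

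The second tested Pde4d probe set, 1392968_at, gave changes of -0.35, -0.22 and -0.01 and overlapped in every experiment, with signals from 22.8 to 60.7. The 2 probe sets had r = -0.302 over the 12 arrays, so they did not move together. The remaining one, 1368750_a_at, had a mean signal of 7.32 and was not tested. Pde3b, by 1369157_at, read 103.8 and 136.9 without stimulus and 96.9 and 152.4 with thrombin, 55.7 and 71 and then 48.5 and 56.9 with TRAP, and 48.6 and 39.3 and then 58.9 and 47.8 with TRAP after PTX. Its groups overlapped each time, the changes were 0.03, -0.20 and 0.21, and the experiments differed more than the stimuli did, with all 4 thrombin-experiment arrays above the 8 others.

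Creb1 encodes CREB itself, the factor that PKA switches on by phosphorylation rather than by new transcript. None of its 3 tested probe sets passed. By 1375655_at it read 286.1 and 289.2 without stimulus and 327.3 and 408.3 with thrombin, a change of 0.33 ± 0.13 (adjusted p = 0.187) with the groups apart. With TRAP the values of 353.8 and 318.4 became 341.6 and 361, and with TRAP after PTX those of 284.4 and 311.4 became 360.8 and 296.4, with overlap in both. The other tested probe sets had values above 0 with thrombin and below 0 with TRAP, all short of the threshold. Creb1 by 1369708_a_at changed by 0.36, -0.22 and 0.28 with thrombin, TRAP and TRAP after PTX, and by 1377913_at by 0.27, -0.22 and 0.40. The fourth, 1371291_at, had a mean signal of 9.09 and was not tested.

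Crem encodes relatives of CREB and, from an internal start, the short repressor ICER, whose rise is a classical answer to cyclic AMP. The array has 6 probe sets for it, and which transcript each one reads is not given in the sources used here. None of the 5 tested probe sets passed with any stimulus. The largest changes were 0.55 ± 0.23 with TRAP for 1393550_at (adjusted p = 0.241), 0.47 ± 0.24 with TRAP for 1369737_at (0.36) and 0.47 ± 0.16 with TRAP after PTX for 1369738_s_at (0.142).

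Of the Crem probe sets, only 1378925_at had its stimulated arrays above its unstimulated arrays in all 3 experiments. It went from 239.4 and 258.9 to 339.4 and 283.2 with thrombin, from 191.3 and 192.3 to 194.3 and 238 with TRAP, and from 183.9 and 156.4 to 275.9 and 202.2 with TRAP after PTX. The corresponding changes were 0.30, 0.15 and 0.44 (adjusted p of 0.343, 0.706 and 0.161). Crem probe set 1369738_s_at read lower with thrombin, 120.6 and 116 after 163.7 and 134.3, and higher with TRAP, from 82.9 and 70.9 to 83.6 and 100.4, and with TRAP after PTX, from 62.9 and 57.8 to 85.6 and 93.6. Its thrombin response lay 0.51 ± 0.22 below its TRAP response (adjusted p = 0.454).

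The remaining Crem probe sets differed among themselves. By 1369737_at the changes were 0.44, 0.47 and 0.03, by 1393550_at 0.13, 0.55 and -0.07, and by 1387714_at 0.16, 0.12 and 0.21 with thrombin, TRAP and TRAP after PTX. Over the 12 arrays the 5 probe sets correlated in pairs with r from -0.195 to 0.543, so Crem has no single pattern on this array. The sixth, 1396545_at, had a mean signal of 7.475 and was not tested. The CRE in the internal Crem windows printed above therefore stands beside no called change of the gene at 120 min.

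Sik1 encodes salt-inducible kinase 1, which restrains the coactivators of CREB and is itself a quick target of CREB. By probe set 1368596_at its signal was higher on both stimulated arrays than on both unstimulated arrays in all 3 experiments. It went from 28 and 36.2 to 52.2 and 93.2 with thrombin, from 14 and 12.6 to 27 and 28.5 with TRAP, and from 20.1 and 14.3 to 29.2 and 29.9 with TRAP after PTX. As ratios of means these are 2.27-fold, 2.09-fold and 1.72-fold. On the log2(signal + 16) scale the changes were 0.85 ± 0.24 with thrombin (adjusted p = 0.064), 0.58 ± 0.24 with TRAP (0.245) and 0.46 ± 0.24 with TRAP after PTX (0.356), and none passed.

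This Sik1 probe set has a mean signal of 32.1 and stands at percentile 43.9 of all probe sets, just inside the filter at percentile 40, and its 4 unstimulated arrays of the TRAP experiments, at 12.6 to 20.1, lie below the filter's signal of 22.7. The thrombin change was called with each array centred on its median (0.90; adjusted p = 0.0485), with a pseudocount of 64 (0.49; 0.0438) and without an intensity trend (0.85; 0.0464), and in 1 of 12 fits that left out an array, with adjusted p from 0.0425 to 0.479 over all alternatives. The second Sik1 probe set, 1368597_at, had a mean of 8.03 (percentile 19.1) and was not tested. Its means were 10.6 ± 11.6 without stimulus and 5.6 ± 3.96 with thrombin (SD, n = 2), so it did not show a higher signal with thrombin.

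**Figure D3:**
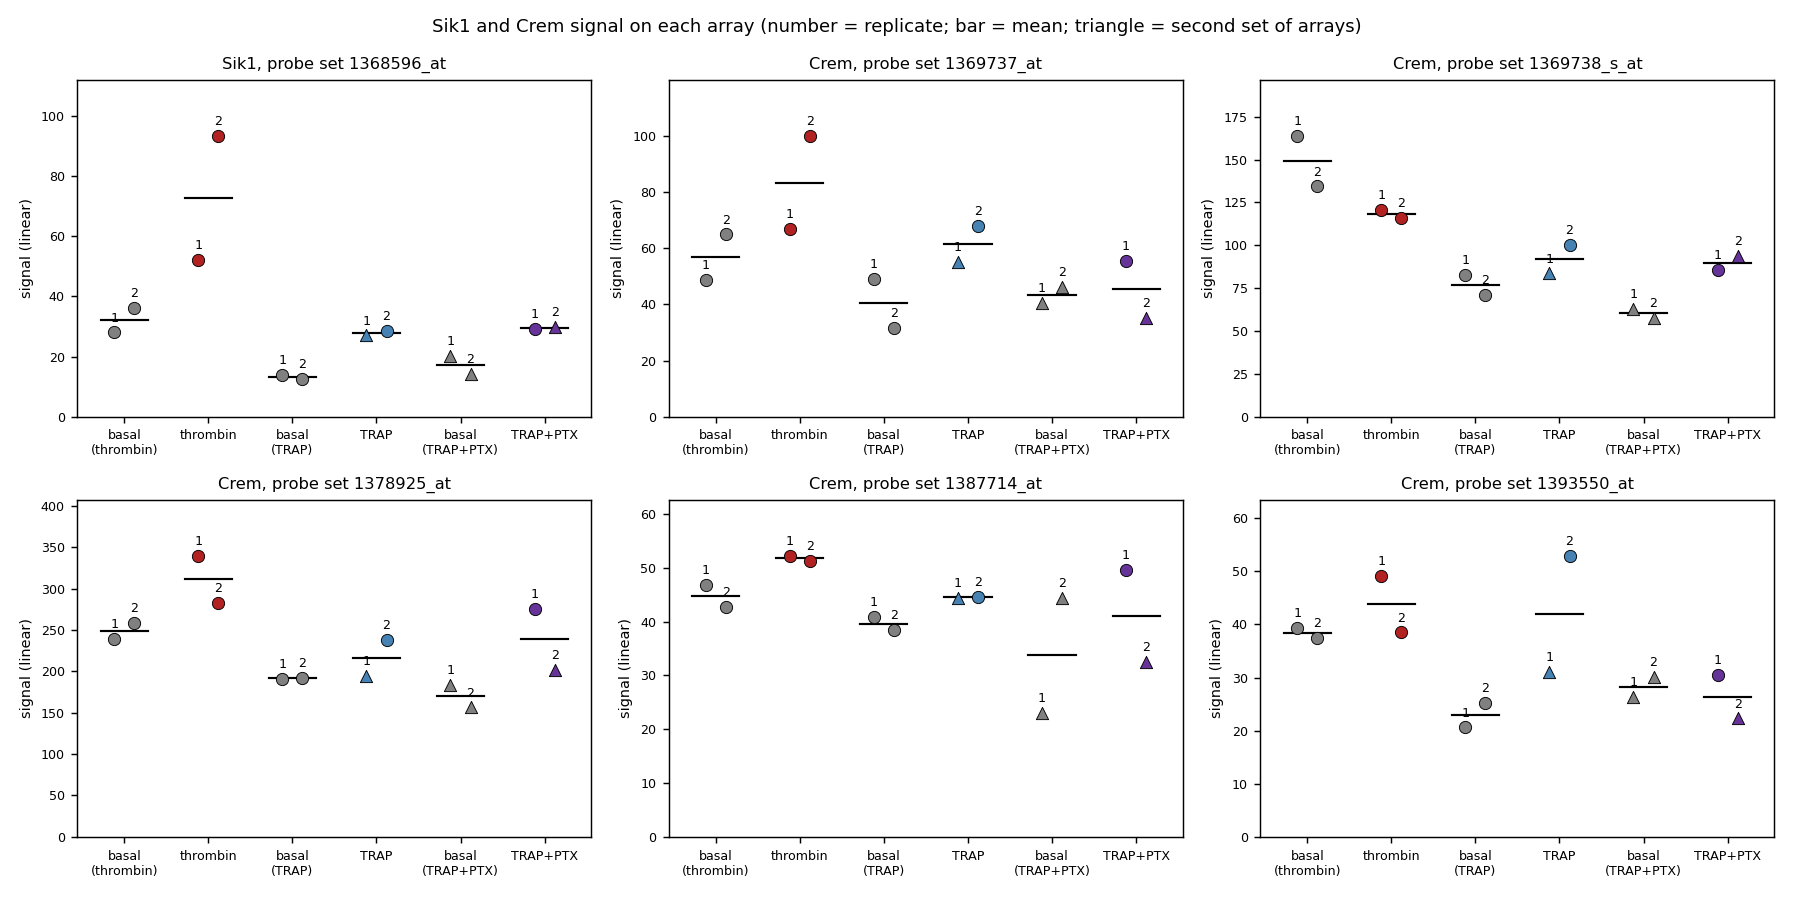
Signal (linear scale, vertical axis) of the tested probe sets of Sik1 and Crem on each of the 12 arrays by group (horizontal axis), with replicate numbers, a bar at each group mean and triangles for the second set of arrays. Stimulated arrays of Sik1 1368596_at lie above their unstimulated arrays in each experiment (52.2 and 93.2 against 28 and 36.2 with thrombin), as do those of Crem 1378925_at, while Crem 1369738_s_at is lower with thrombin (120.6 and 116 against 163.7 and 134.3).

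The comparison of TRAP with and without PTX asks how far the answer to TRAP depends on Gi, which lowers cyclic AMP. None of the 20 member probe sets passed the test of that difference, where 24 of all probe sets did (0.129%). At an unadjusted p below 0.05 there were 0 of the 20 members and 1542 of all 18625 probe sets. The response after PTX was the larger in 15 of the 20, with a median difference of 0.154 against -0.003 over all probe sets. With the sets of arrays as a block it was the larger in 9 of the 20, with a median of -0.05 against -0.005, so that tally depends on the sets. Akap12 had the largest differences, 1.00 ± 0.47 for 1368869_at (adjusted p = 0.618; 95% interval -0.03 to 2.02) and 0.81 ± 0.57 for 1368868_at (adjusted p = 0.777; -0.41 to 2.02).

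The unstimulated Akap12 arrays differed more between these experiments than the stimulated ones. The stimulated arrays compared directly differed by -0.10 and -0.04 (log2, TRAP after PTX minus TRAP; adjusted p of 0.991 and 0.998). Within the first set of arrays TRAP after PTX replicate 1 differed from TRAP replicate 2 by -0.15 for 1368869_at and by -0.11 for 1368868_at, and within the second set TRAP after PTX replicate 2 differed from TRAP replicate 1 by -0.06 and 0.03. With the sets as a block the PTX differences turned to -0.20 (adjusted p = 0.862) and -0.61 (adjusted p = 0.352). Every fit that left out 1 array kept them above 0, from 0.38 to 1.62 and from 0.06 to 1.55, and no alternative called them (adjusted p from 0.162 to 0.991 and from 0.275 to 0.998).

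For the other members the intervals, all from the fit without the block, give the range of a PTX difference with the sets left aside. For Pde4b the differences were 0.30 (95% interval -0.40 to 1.00) and -0.15 (-0.79 to 0.48). With the sets as a block these became 0.65 and 0.26, so that the second changed sign. For Sik1 the difference was -0.12 (-0.85 to 0.62), and -0.13 with the block. For Prkar2b it was 0.40 (-0.30 to 1.11), ran from 0.06 to 0.75 when 1 array was left out, and turned to -0.26 with the block (adjusted p = 0.917). Prkar1a had the narrowest intervals in that fit, at 0.04 (-0.22 to 0.31) by 1373951_at, 0.06 (-0.22 to 0.34) by 1386905_at and 0.07 (-0.31 to 0.44) by 1388375_at. With the block these became -0.04, 0.09 and 0.01. Of Crem and Creb1, 1393550_at had the lowest value (-0.62, -1.32 to 0.08) and 1377913_at the highest (0.62, -0.11 to 1.35). Both moved outward with the block, to -1.03 (adjusted p = 0.457 by limma) and 0.78 (adjusted p = 0.759). Without the block, the intervals of the members other than Akap12 reach as far as -1.32 and 1.35. A missed threshold does not show that PTX left these genes alone.

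**Figure D4:**
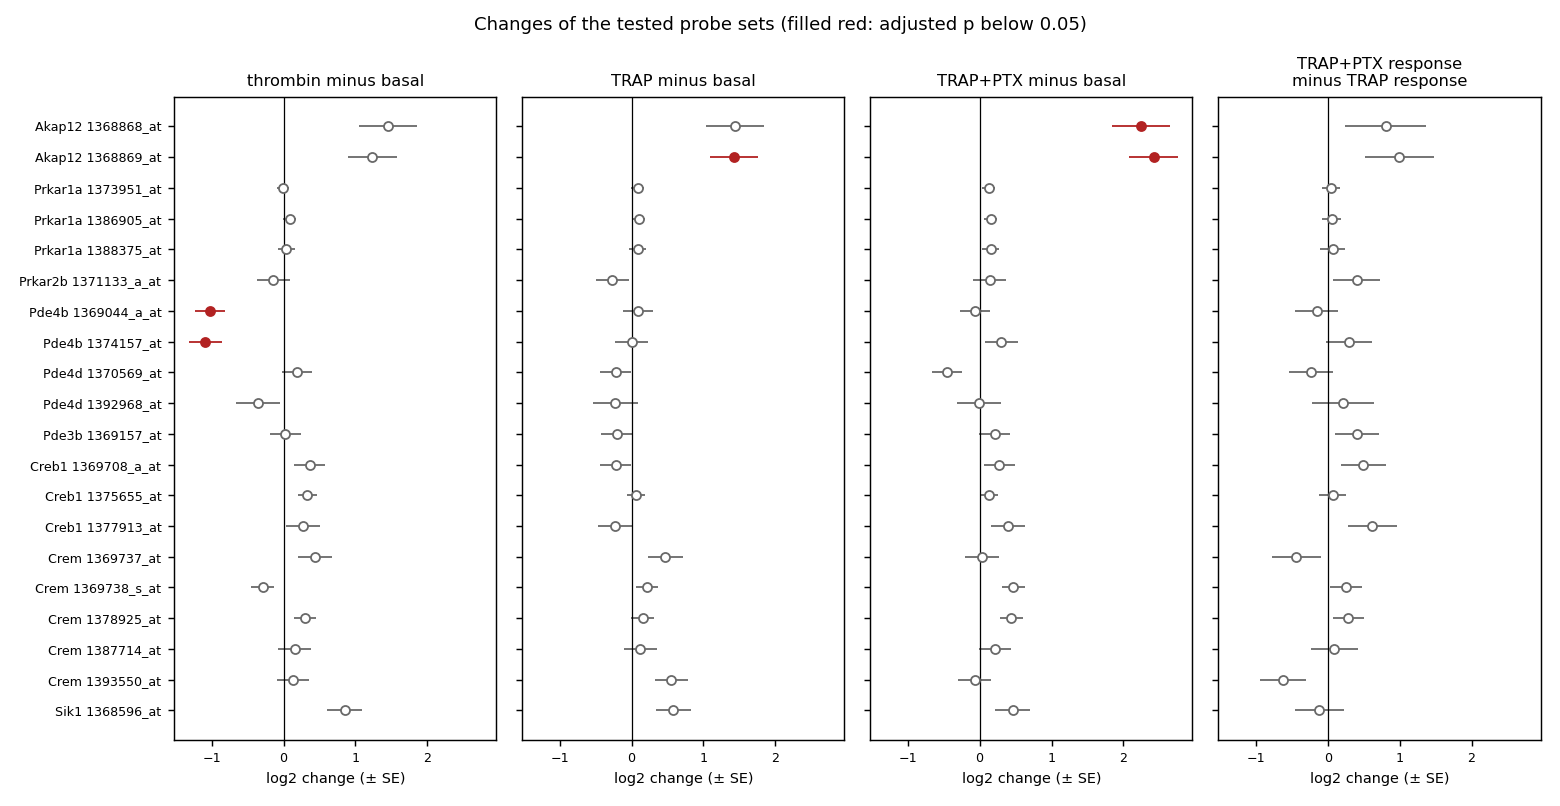
Log2 change with its standard error (horizontal axes) of the 20 tested member probe sets (rows) with thrombin, with TRAP, with TRAP after PTX, and as the TRAP after PTX response minus the TRAP response; filled red points passed limma's test at an adjusted p below 0.05. Red points appear for Pde4b with thrombin (-1.03 and -1.09), for Akap12 1368869_at with TRAP (1.42) and for both Akap12 probe sets with TRAP after PTX (2.42 and 2.25), and none in the last panel.

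Between thrombin and TRAP no member response differed past the threshold, where 99 of all probe sets did (0.532%). At an unadjusted p below 0.05 there were 3 of the 20 member probe sets and 1875 of all 18625. The 3 were both of Pde4b and Crem 1369738_s_at, each lower with thrombin. With the sets of arrays as a block, or without TRAP replicate 1 and TRAP after PTX replicate 1, Akap12 1368869_at rose less with thrombin than with TRAP by that test (-0.79, adjusted p = 0.0101, and -0.81, adjusted p = 0.0317), against -0.19 ± 0.47 (adjusted p = 0.943) over all arrays and 0.0101 to 0.98 over all alternatives.

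The rest of the pathway was taken from lists of genes, each gene by its brightest tested probe set. Among 4 tested adenylyl cyclases of 10 listed, 3 other phosphodiesterases of 13, 6 other PKA subunits and PKA inhibitors of 7, 14 genes of 14 for EPAC, relatives and coactivators of CREB and the other SIK kinases, and 4 Gs-coupled receptors and their partners of 15, none was called with any stimulus. Over all probe sets no more than 2.63% were called in 1 direction with any stimulus, so the absence of calls in lists this short says little. Of 10 tested anchoring proteins among 16 listed besides Akap12, 1 was called, Akap7, which encodes a small membrane-bound anchor of PKA. Akap7 read 597.7 and 634.5 without stimulus and 465.3 and 436.4 with thrombin, 628.4 and 726 and then 486.2 and 473.8 with TRAP, and 659.2 and 573.3 and then 521.2 and 532.6 with TRAP after PTX. Its stimulated arrays were lower in all 3 experiments. It fell by 0.44 ± 0.10 with thrombin (adjusted p = 0.0289) and by 0.48 ± 0.10 with TRAP (adjusted p = 0.0193), while its change of -0.22 with TRAP after PTX did not pass (adjusted p = 0.313). With TRAP, Akap7 therefore fell where Akap12 rose. The Akap7 responses to TRAP with and without PTX differed by 0.26 ± 0.15, which did not pass (adjusted p = 0.699 by limma).

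Of 25 known targets of cyclic AMP and CREB, 20 were tested, and 12 rose with thrombin, 9 with TRAP and 8 with TRAP after PTX, and none fell by the test. Over all probe sets 2.63%, 1.84% and 1.68% were called higher. The median changes of the 20 were 0.867, 0.638 and 0.546, against -0.036, -0.035 and -0.038 over all probe sets. The list was chosen with results of these data known and is no independent evidence of its direction, and most of its genes also answer to other pathways. With thrombin the smallest p-values were those of Ptgs2, the inducible cyclooxygenase (3.03 ± 0.12 with thrombin, 1.82 ± 0.12 with TRAP, 1.18 ± 0.12 with TRAP after PTX), Egr1, an immediate-early transcription factor (1.60, 1.99 and 2.38, each ± 0.11), and Nr4a1, an orphan nuclear receptor (2.61, 1.30 and 1.49, each ± 0.24). Nfil3 was next by p with thrombin (1.51, 0.70 and 0.80 in the same order of stimuli, each ± 0.16). With TRAP the order was Egr1, Ptgs2, Tgif1 and Icam1, and with TRAP after PTX it was Egr1, Ptgs2, Tgif1 and Nr4a1. Of the 20, none passed the limma test of the difference between TRAP with and without PTX. Their median difference was 0.104 against -0.003 over all probe sets, and differences beyond their standard errors went both ways. The responses of Ptgs2 and of Icam1, an adhesion molecule, were lower after PTX (-0.63 ± 0.17 and -0.67 ± 0.18, adjusted p = 0.222 each). Those of Bdnf and Egr1 were higher (0.48 ± 0.14, adjusted p = 0.272, and 0.39 ± 0.15, adjusted p = 0.493). Unstimulated Icam1 read 1435.7 and 1472.3 in the TRAP experiment and 2287.4 and 2188.9 in the PTX experiment. Its stimulated arrays read 2827 and 2410.2 with TRAP and 2186.3 and 2898 with TRAP after PTX. The higher of each pair (2827 and 2898) lie in the second set of arrays, as do both unstimulated arrays of the PTX experiment. Stimulated Icam1 thus followed the sets, and its PTX difference is given here without the block. The members Crem and Sik1, which are targets of the same kind, had no call beside those of the list.

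Among all tested probe sets of other genes, those whose values over the 12 arrays, less the unstimulated mean of the experiment, were most like Akap12 1368869_at were of Aif1l (Pearson's r = 0.972), Cdca4 (0.968) and Naa15 (0.963). For Pde4b 1374157_at they were of Lyrm9 (0.94), Iffo1 (0.934) and Cog4 (0.931). All points share the same 12 arrays, and for Akap12 the split of the TRAP groups between the sets of arrays was not taken out.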

How the data were processed

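Biotin-labelled RNA of 12 samples was read on Affymetrix arrays with 31099 probe sets, 1 colour each. Signals were deposited by the authors as linear intensity, made with GCOS 1.4 per the submitters' processing notes. The trimmed mean of each array was about 200 (200.066 to 200.076), so signals were scaled per array. Detection calls were not used. The 57 control probe sets were left out. Signals were taken as log2(signal + 16), and those whose mean log2 signal exceeded the 40th percentile were kept (18625; mean signal above about 22.7). The 6 groups were fitted together with limma 3.58.1 (lmFit, eBayes with intensity trend) in R 4.3.3, with 6 residual and 7.5 prior degrees of freedom. All tests were 2-sided, p-values were adjusted after Benjamini and Hochberg across the kept probe sets, and 0.05 was the threshold. Of the probe sets, 20826 list 1 symbol, 436 several and 9780 none. The number of arrays limits the precision: the median standard error was 0.1605 for a response and 0.227 for a difference of responses.

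The named probe sets are all members, tested or not, list genes called in a comparison (at most 4 per list and comparison, by p), and the 3 genes most like a called member. Bdnf, which was not called, is named beside Ptgs2 and Icam1 for its opposite PTX difference. Members, lists and tests were chosen with earlier results of these data known. The fit was tested on simulated data. Same-numbered arrays did not deviate together (15 pairs, r from -0.321 to 0.134, 2 of them over 0.1), so no block by replicate was used. Alternatives tried were pseudocounts of 1 and 64, no filter or one at percentile 60, median and quantile scaling, no trend, a replicate block, the compared arrays alone, stimulated arrays compared directly and each array left out. A block for the sets of arrays and a fit without TRAP replicate 1 and TRAP after PTX replicate 1 were chosen after seeing the data.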

Additional observations from a re-analysis of the deposited data

Results flagged for a closer look

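Some responses differed between experiments by the test of the difference itself. These were genes of the list of cyclic AMP and CREB targets and no member. Ptgs2 had a larger change with thrombin than with TRAP, with a difference of 1.22 on the log2 scale (adjusted p = 0.00506 by limma). Its stimulated signals were alike, 3235.8 and 3696.2 with thrombin and 3591.6 and 3510 with TRAP. The difference lay in the unstimulated arrays, at 389.4 and 428 in the thrombin experiment and 1050.4 and 945.9 in the TRAP experiment. Tgif1, a transcriptional repressor, had a lower change with thrombin than with TRAP, a difference of -0.83 (adjusted p = 0.026). Gem, a small GTP-binding protein, differed by 1.69 (adjusted p = 0.0276): it read 14.5 and 25 without stimulus and 57.1 and 44.9 with thrombin, 69.9 and 73.6 and then 43.5 and 28.5 with TRAP, and 89.7 and 75.7 and then 61.8 and 45.7 with TRAP after PTX. Its changes were 0.92, -0.77 and -0.51, with its stimulated arrays above the unstimulated ones in the thrombin experiment and below them in both others.

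In 3 member probe sets the stimulated arrays lay above both unstimulated arrays in one experiment and below both in another, a pattern that was not tested as such. Creb1 1369708_a_at changed by 0.36 with thrombin and -0.22 with TRAP. Creb1 1377913_at changed by 0.27 with thrombin, -0.22 with TRAP and 0.40 with TRAP after PTX. Crem 1369738_s_at changed by -0.29 with thrombin, 0.22 with TRAP and 0.47 with TRAP after PTX. The fit's thrombin minus TRAP differences of these probe sets had adjusted p of 0.576, 0.698 and 0.454. Groups of 2 arrays are too small for a test of single outlying arrays.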

How the results depend on the processing

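Of 2270 values of single member probe sets under the alternatives, 2228 kept their direction when called and their side of the threshold, 29 gained a call and 13 lost one. Among all of them, 125 changed sign, none while called. Except where a filter left a probe set out, the cause of the moves below was not tested.

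Thrombin called 882 probe sets, 2 of them members. The compared arrays alone gave 576 and 4. Member calls were 1 above the 60th percentile, 5 with median centring, 4 with the array sets as a block and 4 without TRAP replicate 1 and TRAP after PTX replicate 1. Above the 60th percentile Pde4b 1369044_a_at, at percentile 54.8, was left out by the filter. Pde4b 1374157_at kept its call there (adjusted p = 0.0139 by limma). Leaving out 1 array gave 342 to 918 probe sets and 0 to 4 members. TRAP called 727 and 1 member. The members were 0 without the filter on low values and 0 without an intensity trend, and 2 with median centring, with the compared arrays alone, with the array sets as a block and without both arrays. Leaving out 1 array gave 208 to 759 and 0 to 2. TRAP after PTX called 505 and 2 members, 334 without a trend, 260 with the compared arrays alone and 166 without both arrays. Leaving out 1 array gave 149 to 539 and 1 to 2. The PTX difference was called in 24, in 13 without the filter, 0 without a trend, 1 with the compared arrays alone and 9 without both arrays, and in 0 to 47 when 1 array was left out. The thrombin minus TRAP difference was called in 99, in 23 without a trend and in 33 to 140 when 1 array was left out. Its member calls went from 0 to 1 with the array sets as a block and to 1 without both arrays.

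With the replicate block, thrombin called 715, TRAP 603, TRAP after PTX 374, the PTX difference 26 and the thrombin minus TRAP difference 82, with 2, 1, 2, 0 and 0 members. Scaling moved the split of higher and lower calls: 490 and 392 with thrombin became 608 and 261 with median centring and 478 and 263 with quantile normalization, 342 and 385 with TRAP became 434 and 263 or 392 and 322, and 313 and 192 with TRAP after PTX became 412 and 127 or 375 and 173. Dim probe sets (Sik1, Pde4d, some of Crem and Creb1) lie near the background, which limits what 2 arrays a group can show.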
